A study of Homo sapiens with 12 samples.

Results

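The set described here holds 7 genes of the epithelial adhesion site built on laminin-332: LAMA3, LAMB3, COL17A1, ITGA6, ITGB4, DST and PLEC. They were picked by symbol, with earlier results of these libraries in view, and make up 7 of the 57783 genes in the count table. All 7 had enough counts to enter the fit of 16327 genes. Their levels and fold changes in the 4 groups are therefore a description and not an independent test of a response.

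RNA was sequenced in bulk from MDA-MB-468, an established human line of triple-negative breast cancer, and the 12 libraries fall into 4 groups of 3 biological replicates. DMSO ALDH1+ and DMSO ALDH1- came from cells kept for 10 days in the solvent alone. EPZ5676 ALDH1+ and EPZ5676 ALDH1- came from cells kept for 10 days in 0.5 µM EPZ5676, a drug that blocks DOT1L, the enzyme that methylates lysine in the globular core of histone H3. The cells were sorted after treatment, so the labels ALDH1+ and ALDH1- describe the cells at the end of the 10 days, and all groups share 1 parental line and 1 medium. The comparisons address what inhibition of DOT1L did to transcript levels in each sorted population, and how both populations differed under each treatment.

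Laminin-332 is a secreted basement membrane protein that anchors basal epithelial cells, and LAMA3 and LAMB3 encode its alpha and beta chains. Its receptor in the hemidesmosome is the integrin formed by ITGA6 and ITGB4, joined in the membrane by the collagen COL17A1. On the inner face, plectin (PLEC) and the epithelial form of dystonin (DST) tie this complex to keratin filaments.

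Promoter windows of the members are shown first, because LAMA3 and COL17A1, the genes with the largest fold changes of the set, differed there in the motif searched. RefSeq windows (build GRCh38.p14, 250 bases before to 50 bases after an annotated start) were matched by symbol for 5 of 7 members and gave 10 windows; ITGB4 and PLEC had no entry. The AP-1 motif TGANTCA, which reads the same on both strands apart from its middle base, is in capitals. The 250 bases before the start are printed for LAMA3 (chr18:23872770-23873019, plus strand), annotated start 3 of LAMB3 (chr1:209651375-209651624, minus strand) and COL17A1 (chr10:104085881-104086130, minus strand).
LAMA3: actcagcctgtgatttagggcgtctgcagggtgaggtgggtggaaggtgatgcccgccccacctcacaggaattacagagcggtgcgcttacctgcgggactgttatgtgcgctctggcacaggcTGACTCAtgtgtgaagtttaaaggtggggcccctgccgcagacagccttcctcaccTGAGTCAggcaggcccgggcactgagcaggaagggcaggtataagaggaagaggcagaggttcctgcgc
LAMB3: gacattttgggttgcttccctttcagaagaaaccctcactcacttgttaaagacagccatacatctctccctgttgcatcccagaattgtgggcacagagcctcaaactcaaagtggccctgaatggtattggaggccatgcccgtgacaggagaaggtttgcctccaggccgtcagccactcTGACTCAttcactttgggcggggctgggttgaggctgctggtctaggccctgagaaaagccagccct
COL17A1: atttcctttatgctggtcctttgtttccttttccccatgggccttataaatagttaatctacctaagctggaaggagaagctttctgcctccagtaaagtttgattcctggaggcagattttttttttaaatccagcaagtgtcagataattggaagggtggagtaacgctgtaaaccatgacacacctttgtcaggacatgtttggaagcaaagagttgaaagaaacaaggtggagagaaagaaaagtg

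LAMA3 held the motif 125 and 69 bases before the only start with a window. LAMB3 held it 67 bases before start 3, and its windows at starts 1 and 2 held none. The other members' windows held 1 further match, 26 bases after the first of 3 starts of DST. COL17A1 held none, nor did either window of ITGA6. The LAMA3 and COL17A1 windows also differed in the other motifs counted on both strands: GGGCGG (1 and 0 matches), TATAAA (0 and 1), CCAAT (0 and 1) and CANNTG (2 and 1). Over all 35116 RefSeq windows of 300 bases, 7.71% held TGANTCA, 45% held GGGCGG, 11.5% held TATAAA and 34.6% held CCAAT. Both matches in LAMA3 shared 2 bases with an E-box motif (CANNTG, on either strand), which 68.7% of all windows held. The GENCODE 29 annotation lists 15 transcript starts for LAMA3 and 11 for COL17A1, of which 1 window each was searched. Gene counts do not say which start was used. These matches describe letters in a window, and binding was not measured.

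Replicates had total counts from 24348594 to 80195050, and 3 counts corresponded to 0.0376 to 0.122 CPM, or counts per 1000000 scaled counts, across libraries. Treatment separated the libraries on the first principal component (62.3% of variance). On it the EPZ5676 libraries numbered 3 lay at 26.8 and 27.3 against 40.5 to 42.5 for the other EPZ5676 libraries. All 12 basal-like and epithelial markers listed were detected; with EPZ5676, 3 rose and 4 fell in ALDH1+, and 2 rose and 1 fell in ALDH1-. Summed luminal markers lay at 148 to 176 CPM in DMSO and 123 to 135 CPM in EPZ5676, and of the 4 tested, 1 rose and 2 fell in each population. The endothelial marker VWF reached at most 0.535 CPM in any library. It rose in ALDH1+ from 0.0865 ± 0.020 to 0.423 ± 0.097 CPM (log2 2.25, SE 0.57, adjusted p = 0.00785), with 1.07 (SE 0.58, adjusted p = 0.214) in ALDH1-. The size of that rise is uncertain, since VWF had only 3, 2 and 4 counts in the DMSO ALDH1+ libraries. Summed fibroblast markers lay at 8.89 to 14.2 CPM in DMSO and 18.5 to 25.0 CPM in EPZ5676, of which DCN and LUM were at 0 in every library. Summed leukocyte markers lay at 7.05 to 11.3 CPM in DMSO and 9.24 to 16.7 CPM in EPZ5676. Of the 3 leukocyte markers tested, 2 rose and 1, CD14, fell in ALDH1+, and 2 rose and 0 fell in ALDH1-. Over all genes tested, 17.8% rose and 13.7% fell in ALDH1+, and 13.6% rose and 9.04% fell in ALDH1-. The part of these markers in the results was not tested. In sorted bulk samples, a change in RNA per cell and a change in the share of cells that carry a transcript cannot be told apart.

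In EPZ5676 all 7 members were higher than in DMSO in both populations, with no overlap between the replicates of any gene. All 7 passed an adjusted p of 0.05 over all genes as higher in ALDH1+, where 31.5% of the genes tested were called, 17.8% as higher and 13.7% as lower. In ALDH1-, 6 of 7 passed, all but PLEC, where 22.6% of the genes tested were called, 13.6% as higher and 9.04% as lower. Replicates of both treatments did not overlap for 22% of all genes with EPZ5676 higher and 19.3% with it lower in ALDH1+, and for 19.7% and 19.4% in ALDH1-. The median log2 fold change of the members was 1.12 in ALDH1+ and 0.96 in ALDH1-, against -0.01 and -0.02 over all genes tested. Nothing is read from these counts, since earlier results on these contrasts were known when the members were chosen. The choice was by symbol, and whether the size of a change played a part in it is not recorded.

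**Figure D1:**
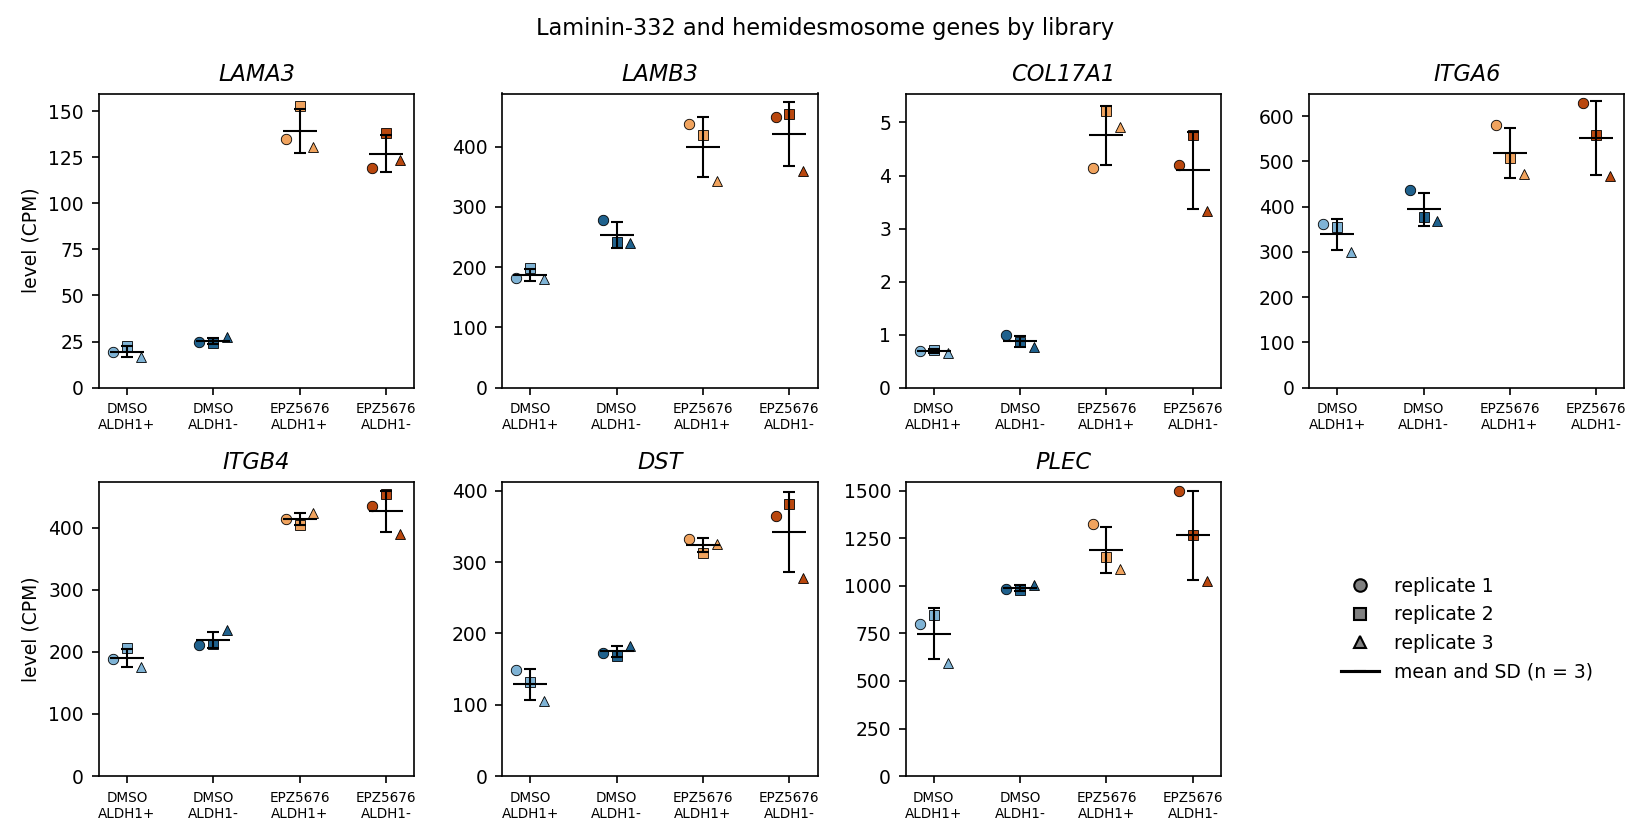
Levels in CPM (vertical axes, linear, from 0) of the 7 genes in the 12 libraries by group; symbols mark replicate numbers, lines and bars the mean and SD of 3 replicates. LAMA3 goes from 16.5 to 27.3 CPM in the 6 DMSO libraries to 119 to 153 CPM in the 6 EPZ5676 libraries, while PLEC in EPZ5676 ALDH1- ranges from 1028 to 1500 CPM, just above its DMSO ALDH1- libraries.

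LAMA3 (ENSG00000053747.11), the alpha chain, rose more than LAMB3 in both populations. In replicates 1, 2 and 3 it was at 19.4, 22.3 and 16.5 CPM (DMSO ALDH1+) and 24.9, 24.1 and 27.3 CPM (DMSO ALDH1-). It reached 135, 153 and 131 CPM in EPZ5676 ALDH1+ and 119, 138 and 124 CPM in EPZ5676 ALDH1-. The lowest treated library was thus above the highest DMSO library by a wide gap. In ALDH1+ the mean went from 19.4 ± 2.9 to 139 ± 12 CPM (SD, n = 3), a 7.24-fold difference with a log2 fold change of 2.86 (SE 0.11, 95% interval 2.64 to 3.07). In ALDH1- it went from 25.4 ± 1.7 to 127 ± 10 CPM, or 5.0-fold, with a log2 fold change of 2.32 (SE 0.11, 95% interval 2.11 to 2.53). By size of the log2 fold change LAMA3 ranked 148 of 16327 genes in ALDH1+ and 207 in ALDH1-, counted from the highest.

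LAMB3 (ENSG00000196878.8), the beta chain, started higher and rose less. Its 3 replicates stood at 182, 199 and 181 CPM (DMSO ALDH1+) and 279, 242 and 239.2 CPM (DMSO ALDH1-). After EPZ5676 they stood at 437, 419 and 343 CPM in ALDH1+ and 449, 454 and 360 CPM in ALDH1-. Replicate 3 was the lowest in both treated groups and still above every DMSO library. The log2 fold change was 1.09 (SE 0.10, 95% interval 0.89 to 1.30) in ALDH1+ and 0.73 (SE 0.10, 95% interval 0.53 to 0.94) in ALDH1-, which correspond to 2.13-fold and 1.66-fold.

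LAMA3 and LAMB3 did not keep their proportion. Within a library, the ratio of LAMA3 to LAMB3 counts was 0.103 ± 0.011 in DMSO ALDH1+ and 0.352 ± 0.038 in EPZ5676 ALDH1+, and 0.101 ± 0.012 and 0.305 ± 0.039 in ALDH1- (SD, n = 3). Treated and DMSO libraries did not overlap for this ratio in either population, and the populations overlapped under both treatments. Gene length sets the scale of such ratios, so levels were also set per kilobase of merged exons of an annotation of another build (GENCODE 29). Per kilobase, LAMA3 had a mean of 1.32 CPM in DMSO ALDH1+ and 9.5 in EPZ5676 ALDH1+, and LAMB3 had 40.0 and 85.2. On that scale LAMA3 was below LAMB3 in each of the 4 groups.

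**Figure D2:**
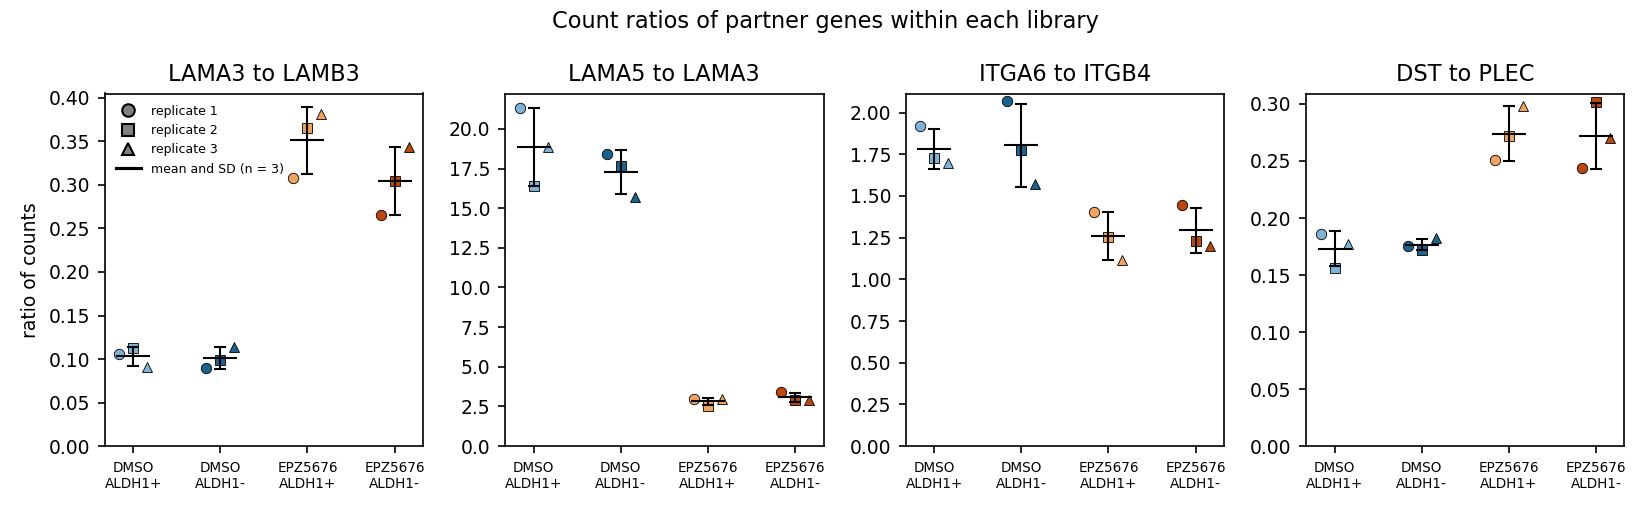
Ratio of counts of partner genes within each library (vertical axes, linear, from 0) by group; symbols mark replicate numbers, lines and bars the mean and SD of 3 replicates. LAMA3 to LAMB3 rises from 0.0893 to 0.114 in DMSO to 0.265 to 0.381 in EPZ5676, and ITGA6 to ITGB4 falls from 1.57 to 2.07 to 1.12 to 1.45.

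Other laminin chains were counted from a list of 9, of which 7 passed the filter. Among all genes tested, 17.8% rose and 13.7% fell in ALDH1+, and 13.6% rose and 9.04% fell in ALDH1-. In each population 4 of the 7, LAMA2, LAMC3, LAMB1 and LAMC1, rose and 0 fell, with edgeR's quasi-likelihood test; the list's median log2 fold change was 0.73 in ALDH1+ and 0.44 in ALDH1-. LAMC3, a laminin chain at low counts, went from 0.344 ± 0.15 to 1.46 ± 0.47 CPM in ALDH1+, or 2.13 on the log2 scale (SE 0.31, adjusted p = 1.0e-04). In ALDH1- it went from 0.324 ± 0.077 to 1.69 ± 0.24 CPM, or 2.36 on the log2 scale (SE 0.33, adjusted p = 1.2e-04), beside 2.32 for LAMA3. LAMA2, the alpha chain of muscle laminin, rose by 1.66 on the log2 scale in ALDH1+ (SE 0.17, adjusted p = 4.7e-06). LAMB1 and LAMC1, chains shared by most basement membrane laminins, rose by 0.79 and 0.73 on the log2 scale in ALDH1+ (SE 0.07 and 0.11) and by 0.74 and 0.44 in ALDH1- (SE 0.07 and 0.11). LAMA5, LAMA4 and LAMB2 passed in neither population. Under the replicate block LAMB2 passed as higher in ALDH1+ (0.16, adjusted p = 0.0339), and without the 4 libraries numbered 3 LAMA4 passed as lower (-0.45, adjusted p = 0.00537). LAMA5, the alpha chain of most adult epithelial basement membranes, was at 363 CPM in DMSO ALDH1+ and 391 CPM in EPZ5676 ALDH1+, a log2 fold change of 0.11 (SE 0.09), and at -0.17 (SE 0.09) in ALDH1-. Counts of LAMA5 were 18.9 ± 2.4 times those of LAMA3 in DMSO ALDH1+ and 2.81 ± 0.23 times in EPZ5676 ALDH1+ (SD, n = 3). The corresponding ratios in ALDH1- were 17.3 ± 1.4 and 3.08 ± 0.28. LAMA1 and LAMB4 were not tested for low counts.

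The receptor subunits rose less than LAMA3. ITGB4 (ENSG00000132470.9), the integrin beta chain that pairs with ITGA6 alone, was at 188, 206 and 176 CPM (DMSO ALDH1+) and 211, 213 and 234 CPM (DMSO ALDH1-). It was at 413, 404 and 423 CPM in EPZ5676 ALDH1+ and at 435, 453 and 389 CPM in EPZ5676 ALDH1-. Its replicates were close together in every group, with an SD of 9.57 CPM around a mean of 413 CPM in EPZ5676 ALDH1+. The log2 fold change was 1.12 (SE 0.08, 95% interval 0.97 to 1.27) in ALDH1+ and 0.96 (SE 0.08, 95% interval 0.81 to 1.11) in ALDH1-. The gene GALK1 overlaps ITGB4 on the opposite strand and had counts equal to 7.72% of those of ITGB4; how the counting treated strand is not given in the sources used here. For the other members, overlapping genes reached at most 0.16% of the member's counts.

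ITGA6 (ENSG00000091409.10), the alpha chain, which also pairs with the widespread ITGB1, rose least of the genes that passed in both populations. Its replicates were 362, 356 and 299 CPM (DMSO ALDH1+) and 436, 378 and 368 CPM (DMSO ALDH1-). With EPZ5676 they were 580, 507 and 472 CPM in ALDH1+ and 630, 558 and 467 CPM in ALDH1-. Replicate 3 was again lowest in all 4 groups, and the treated replicates stayed above the DMSO replicates of the same population. The log2 fold change was 0.62 (SE 0.11, 95% interval 0.40 to 0.84) in ALDH1+ and 0.49 (SE 0.11, 95% interval 0.26 to 0.71) in ALDH1-. The ratio of ITGA6 to ITGB4 counts went from 1.78 ± 0.12 to 1.26 ± 0.14 in ALDH1+ and from 1.80 ± 0.25 to 1.29 ± 0.14 in ALDH1- (SD, n = 3), with no overlap between treatments.

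COL17A1 (ENSG00000065618.12), the transmembrane collagen, was the least abundant member. It had 19, 18 and 37 counts (DMSO ALDH1+) and 27, 25 and 20 counts (DMSO ALDH1-), which are 0.691, 0.717 and 0.655 CPM and 0.990, 0.850 and 0.768 CPM. In EPZ5676 ALDH1+ it had 116, 416 and 146 counts, or 4.14, 5.21 and 4.92 CPM, and in EPZ5676 ALDH1- it had 103, 136 and 84 counts, or 4.2, 4.77 and 3.33 CPM. All treated libraries were over 3 CPM and all DMSO libraries under 1 CPM. Its log2 fold change was close to that of LAMA3, at 2.81 (SE 0.19, 95% interval 2.44 to 3.17) in ALDH1+ and 2.24 (SE 0.19, 95% interval 1.86 to 2.61) in ALDH1-, but rested on far fewer counts. Even after treatment, its mean level per kilobase was 0.673 CPM in ALDH1+, against 61.1 CPM for ITGB4 in the same group.

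Of the plakins, DST (ENSG00000151914.13) rose more than PLEC. DST, which through different starts also encodes neuronal and muscle forms, was at 149, 132 and 106 CPM (DMSO ALDH1+) and 173, 168 and 183 CPM (DMSO ALDH1-). It was at 333, 314 and 326 CPM in EPZ5676 ALDH1+ and 365, 382 and 278 CPM in EPZ5676 ALDH1-. The treated groups lay above both DMSO groups. Its log2 fold change was 1.33 (SE 0.12, 95% interval 1.09 to 1.57) in ALDH1+ and 0.97 (SE 0.12, 95% interval 0.73 to 1.2) in ALDH1-. GENCODE 29 lists 35 transcripts with 34 starts for DST, and gene counts do not say which form was measured.

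PLEC (ENSG00000178209.10), a cytolinker of many cell structures beside the hemidesmosome, had the most counts of the members. It was at 801, 847 and 596 CPM in DMSO ALDH1+ and 1327, 1151 and 1090 CPM in EPZ5676 ALDH1+, with a log2 fold change of 0.67 (SE 0.13, 95% interval 0.41 to 0.93). In ALDH1- it was at 986, 977 and 1004 CPM in DMSO and 1500, 1266 and 1028 CPM in EPZ5676. There the treated replicates differed by more than the DMSO ones, and the lowest treated library was 1028 CPM against a highest DMSO library of 1004 CPM. The log2 fold change of 0.35 (SE 0.13, 95% interval 0.09 to 0.62) missed the threshold, with an adjusted p of 0.0719. With the replicate number as a block the adjusted p was 0.0115, and without EPZ5676 ALDH1- replicate 3 it was 0.0126. Counts of DST relative to PLEC went from 0.173 ± 0.015 to 0.274 ± 0.024 in ALDH1+ and from 0.177 ± 0.0050 to 0.272 ± 0.029 in ALDH1- (SD, n = 3).

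**Figure D3:**
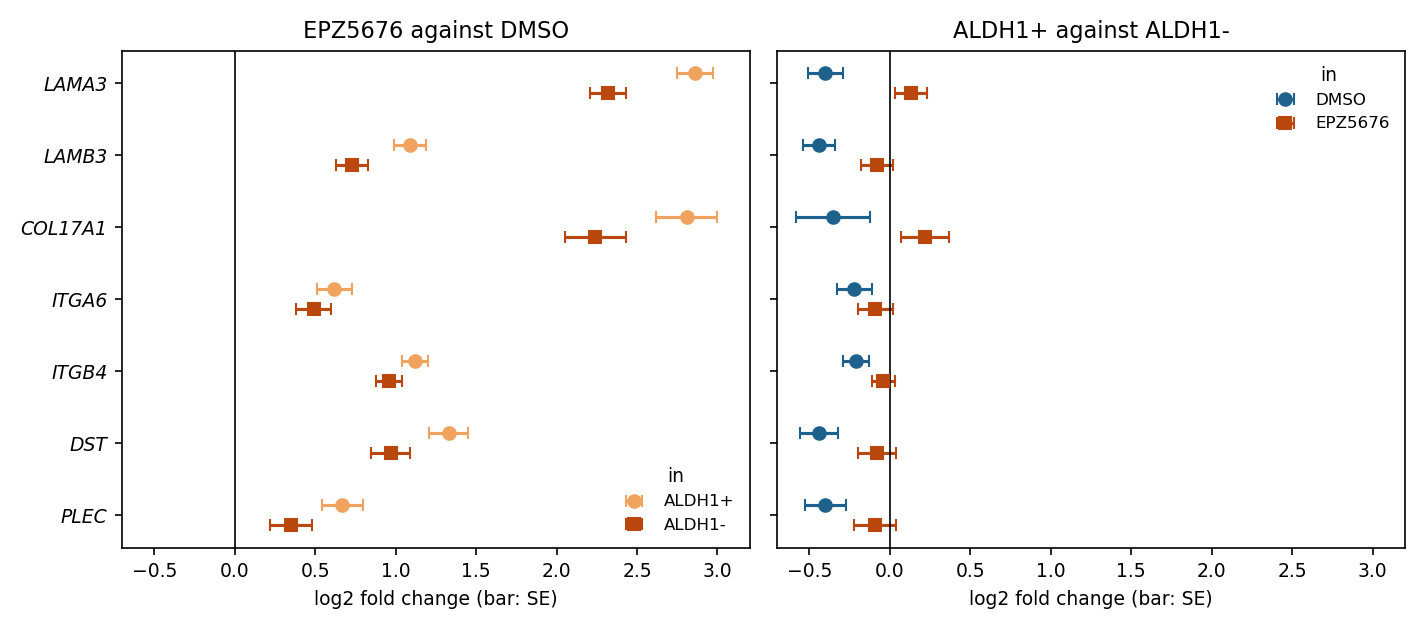
Log2 fold changes (horizontal axes) of the 7 genes with their standard errors (bars) for EPZ5676 against DMSO in each population, left, and ALDH1+ against ALDH1- in each treatment, right. Treatment differences run from 0.35 for PLEC in ALDH1- to 2.86 for LAMA3 in ALDH1+, and population differences from -0.44 for LAMB3 and DST in DMSO to 0.22 for COL17A1 in EPZ5676.

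The replicate numbers were taken to pair the libraries, so the treatment difference was also read within each number, as log2 of EPZ5676 over DMSO. The sample titles give only the numbers, and the main fit held no replicate block. For LAMA3 it was 2.80, 2.77 and 2.98 in numbers 1, 2 and 3 of ALDH1+ and 2.26, 2.52 and 2.18 in ALDH1-. For DST it was 1.16, 1.25 and 1.62 in ALDH1+ but 1.08, 1.18 and 0.60 in ALDH1-. For PLEC it was 0.73, 0.44 and 0.87 in ALDH1+ and 0.61, 0.37 and 0.03 in ALDH1-. Every member was higher with EPZ5676 in all 6 same-numbered pairs, and in ALDH1- the pair numbered 3 gave the smallest difference for LAMA3, LAMB3, ITGA6, ITGB4, DST and PLEC. For COL17A1 it lay at 2.04, beside 2.02 and 2.41. In ALDH1+ the pair numbered 3 gave the largest difference for LAMA3, COL17A1, ITGB4, DST and PLEC, but the smallest for LAMB3. The EPZ5676 ALDH1- library numbered 3 had the lowest level of its group for all members but LAMA3.

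ALDH1+ and ALDH1- cells were compared under each treatment. In DMSO, all 7 members were lower in ALDH1+ without overlap, where 12.4% of all genes tested were lower and 10.6% higher without overlap. The log2 differences ran from -0.44 for LAMB3 (SE 0.10, 95% interval -0.64 to -0.23) and DST (SE 0.12, 95% interval -0.67 to -0.20) to -0.21 for ITGB4 (SE 0.08, 95% interval -0.36 to -0.06). LAMA3 and PLEC were both at -0.40 (SE 0.11 and 0.13), COL17A1 at -0.35 (SE 0.23) and ITGA6 at -0.22 (SE 0.11). None passed an adjusted p of 0.05 in edgeR's quasi-likelihood test, in which 0% of the genes tested did (0 of 16327). At an unadjusted p under 0.05, 5 of the 7 were lower and 2904 of all genes (17.8%) differed in either direction. With the replicate block 5 members passed as lower, namely LAMA3, LAMB3, ITGA6, DST and PLEC. Of all genes, 1384 (8.48%) were called with that block, 820 as lower. DESeq2 called 3 members lower, LAMA3, LAMB3 and DST, among 298 of all genes called (1.83%), 152 as lower. With limma-voom 0 members and 0 of all genes were called.

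In EPZ5676 the replicates of both populations overlapped for all 7 genes, where 4.95% of all genes were higher and 4.62% lower in ALDH1+ without overlap. LAMA3 and COL17A1 had positive log2 differences of 0.13 (SE 0.10, 95% interval -0.06 to 0.33) and 0.22 (SE 0.15, 95% interval -0.08 to 0.52), and the other 5 lay between -0.09 and -0.04. No member passed, where 0.0184% of the genes tested were called (3 of 16327), and 0 members had an unadjusted p under 0.05 against 1032 of all genes (6.32%). With DESeq2, limma-voom and the replicate block 0 members passed as well. In order of mean level, LAMB3, ITGA6, ITGB4, DST and PLEC ran DMSO ALDH1+, DMSO ALDH1-, EPZ5676 ALDH1+, EPZ5676 ALDH1-. LAMA3 and COL17A1 had the last 2 in the opposite order, and for every member the replicates of those last 2 groups overlapped.

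Whether the treatment difference itself differed between populations was tested as an interaction. It was positive for all 7 members, which means a larger difference in ALDH1+. It ran from 0.13 for ITGA6 (SE 0.16, 95% interval -0.18 to 0.44) to 0.53 for LAMA3 (SE 0.15, 95% interval 0.25 to 0.82) and 0.57 for COL17A1 (SE 0.28, 95% interval 0.03 to 1.11). The adjusted p was 0.979 for each member, and 0% of the genes tested were called. At an unadjusted p under 0.05 there were 3 members and 597 of all genes (3.66%). LAMA3 passed when no filter on low counts was used, with an adjusted p of 0.0342, and under no other setting tried. A larger response of these genes in ALDH1+ was thus not shown.

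Genes that work beside the members were taken from lists set by function. Counts in this and the following lists stand beside the shares over all genes tested. Those were 17.8% higher and 13.7% lower in ALDH1+, and 13.6% higher and 9.04% lower in ALDH1-. Of 3 other plakins that could be tested, 1 rose in both populations and 0 fell: MACF1, a spectraplakin related to DST, by 0.68 (SE 0.10, adjusted p = 1.0e-04) in ALDH1+ and 0.47 (SE 0.10, adjusted p = 0.0025) in ALDH1- on the log2 scale. DSP, the desmosomal plakin, fell in ALDH1- once replicate numbers were blocked. PPL, a plakin of the cornified envelope, had 0 counts in all libraries.

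Of 10 partners of the hemidesmosome and the anchoring zone, 5 rose and 1 fell in ALDH1+, and 4 rose and 0 fell in ALDH1-. The list's median log2 fold change was 0.27 and 0.12. FRAS1, an extracellular matrix protein under the epidermis, went from 21.5 ± 5.7 to 67.7 ± 8.2 CPM in ALDH1+, or 1.67 on the log2 scale (SE 0.19, adjusted p = 1.2e-05), and rose by 1.16 (SE 0.19, adjusted p = 4.0e-04) in ALDH1-. FERMT1, the epithelial kindlin that activates integrins, rose by 1.04 (SE 0.17) and 0.71 (SE 0.17) on the log2 scale, and the proteoglycan HSPG2 by 0.91 (SE 0.16) and 0.70 (SE 0.15). NID2, a nidogen that binds laminin, had 0 to 3 counts in each DMSO library and 7 to 53 in each EPZ5676 library, and no fold is given at that depth. CD151, a tetraspanin that binds the ITGA6 integrins, fell by 0.29 on the log2 scale in ALDH1+ (SE 0.07, adjusted p = 0.00613), and was at -0.13 (SE 0.07, adjusted p = 0.216) in ALDH1-. With the replicate block 2 of these partners fell in ALDH1+ and 1 in ALDH1-, and without DMSO ALDH1+ replicate 3 there were 2 that fell in ALDH1+. COL18A1 was the further one with the block in both populations, and CD151 did not pass without the 4 libraries numbered 3 (adjusted p = 0.0623).

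The basal keratins KRT5 and KRT14, to whose filaments hemidesmosomes attach, were looked at after their values were seen. KRT5 had a mean of 2444 CPM in DMSO ALDH1+ and 2548 CPM in EPZ5676 ALDH1+, a log2 fold change of 0.06 (SE 0.07), and -0.03 (SE 0.07) in ALDH1-. KRT14 had log2 fold changes of 0.27 (SE 0.20) and 0.15 (SE 0.20). Neither passed the test in either population, but with the replicate block KRT14 passed in ALDH1+ (adjusted p = 0.0217).

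Of 9 other laminin receptors, 4 rose and 1 fell in ALDH1+, and 3 rose and 0 fell in ALDH1-, with a median log2 fold change of 0.13 and 0.09. ITGA2, the alpha chain of a collagen and laminin receptor, went from 73.8 ± 15 to 255 ± 80 CPM in ALDH1+, or 1.79 on the log2 scale (SE 0.23, adjusted p = 4.4e-05), and rose by 1.55 (SE 0.23, adjusted p = 2.1e-04) in ALDH1-. ITGA3, which with ITGB1 forms another receptor of laminin-332, rose by 0.64 (SE 0.09) and 0.41 (SE 0.09), and ITGB1 by 0.59 (SE 0.10) and 0.56 (SE 0.10). ITGA7, at 0.404 CPM in DMSO ALDH1+, rose by 1.02 (SE 0.35, adjusted p = 0.0395) in ALDH1+, a call lost with DESeq2 and in 5 of the 6 fits that left out a library of that comparison. ITGA7 also passed in ALDH1- with the replicate block (adjusted p = 0.0331). RPSA, the ribosomal protein also known as the laminin receptor, fell by 0.27 in ALDH1+ (SE 0.09, adjusted p = 0.0391). That call was lost with total-count scaling, when only those groups were fitted, and without DMSO ALDH1+ replicate 3 or any 1 of the 3 EPZ5676 ALDH1+ libraries. Without the 4 libraries numbered 3 RPSA passed in ALDH1- alone (adjusted p = 0.0171). With the replicate block 1 receptor, DAG1, fell in ALDH1-.

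Enzymes that cut laminin-332 or shed COL17A1 were counted from a list with 7 testable genes, of which 5 rose in ALDH1+, 4 rose in ALDH1- and 0 fell in either. The median log2 fold change was 0.73 and 0.47. PLAT, tissue plasminogen activator, went from 0.344 ± 0.17 to 2.34 ± 0.38 CPM in ALDH1+, or 2.82 on the log2 scale (SE 0.28, adjusted p = 3.2e-06). MMP2, a gelatinase, went from 0.259 ± 0.028 to 1.18 ± 0.071 CPM, or 2.18 on the log2 scale (SE 0.27, adjusted p = 2.5e-05). Both had at most 15 counts in each DMSO library. ADAM9, a sheddase, rose by 0.73 (SE 0.11) and 0.64 (SE 0.11) in ALDH1+ and ALDH1-, and BMP1, a protease that processes laminin chains, by 0.51 (SE 0.10) and 0.34 (SE 0.10). The ALDH1- call of BMP1 was lost without DMSO ALDH1- replicate 2 or 3 and without EPZ5676 ALDH1- replicate 1 or 2. ADAM10 and ADAM17, also on the list, passed in neither population. They were at -0.09 and -0.08 in ALDH1+, and both at -0.12 in ALDH1- (SE 0.06 for each value). MMP14, the membrane protease that activates MMP2, rose by 0.83 in ALDH1+ (SE 0.17, adjusted p = 0.0022) and was at 0.47 (SE 0.17, adjusted p = 0.0658) in ALDH1-, where it passed with the replicate block (adjusted p = 0.00478) and without DMSO ALDH1- replicate 1 or EPZ5676 ALDH1- replicate 3.

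Of 14 transcription factors of basal epithelium and the AP-1 family, 4 rose and 3 fell in ALDH1+, and 3 rose and 1 fell in ALDH1-, with a median log2 fold change of 0.06 and 0.04. Of all genes tested, 17.8% rose and 13.7% fell in ALDH1+, and 13.6% rose and 9.04% fell in ALDH1-. Nothing is read from the counts of this list. The AP-1 subunit FOSL1 went from a mean of 101 CPM to 209 CPM in ALDH1+, or 1.06 on the log2 scale (SE 0.25, adjusted p = 0.00472), and rose by 0.79 (SE 0.25, adjusted p = 0.0334) in ALDH1-. FOSL2, of the same family, rose by 0.53 (SE 0.08) and 0.39 (SE 0.08). JUND, another AP-1 subunit, was among the 3 that fell in ALDH1+, by 0.44 (SE 0.09, adjusted p = 0.00144). In ALDH1- JUND was at -0.25 (SE 0.09, adjusted p = 0.057). KLF4, a factor of epidermal barrier formation, rose by 1.09 (SE 0.25, adjusted p = 0.00364) and 0.83 (SE 0.25, adjusted p = 0.025). GRHL3, a grainyhead factor, fell by 1.41 (SE 0.30, adjusted p = 0.00226) and by 1.42 (SE 0.31, adjusted p = 0.0039). TP63, the master factor of basal epithelium, was at 1.58 CPM in DMSO ALDH1+ and fell by 1.35 in ALDH1+ (SE 0.34, adjusted p = 0.00682), with -0.78 (SE 0.34, adjusted p = 0.123) in ALDH1-. The ALDH1+ call of TP63 was lost without EPZ5676 ALDH1+ replicate 2 (adjusted p = 0.0567). With the replicate block, 6 of these factors fell in ALDH1+ and 5 in ALDH1-. FOS, JUN, JUNB, JUND, TP63 and GRHL3 were those in ALDH1+, and JUNB was not among the 5. Without the 4 libraries numbered 3, 5 fell in ALDH1+. The 3 rises in ALDH1- came to 1 with DESeq2 (FOSL2), without DMSO ALDH1- replicate 2 or 3, and without EPZ5676 ALDH1- replicate 1 or 2, and without EPZ5676 ALDH1- replicate 1 there were 2 falls.

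**Figure D4:**
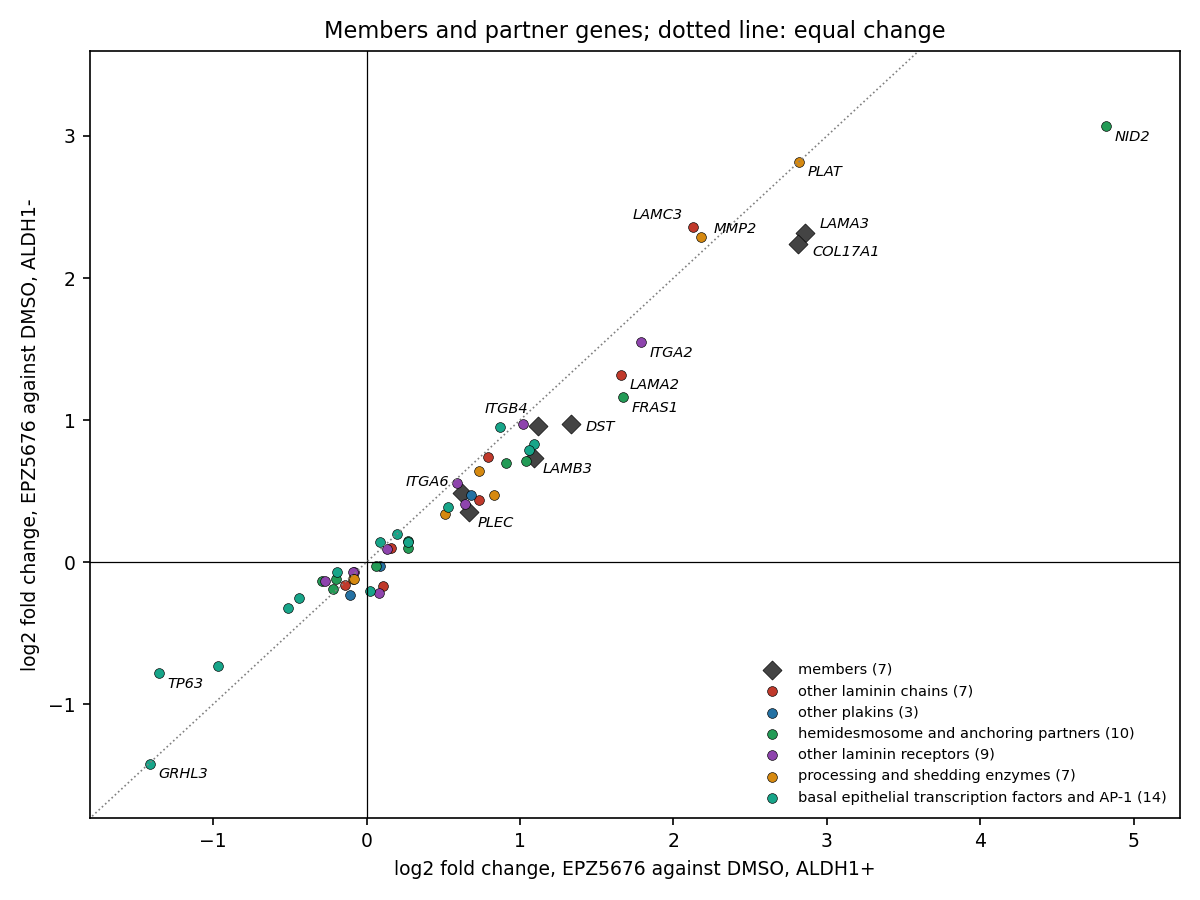
Log2 fold change of EPZ5676 against DMSO in ALDH1+ (horizontal) and in ALDH1- (vertical) for the 7 members (diamonds) and the tested genes of 6 lists (circles, numbers in the key). LAMA3 and COL17A1 lie beyond the other laminin chains plotted along the ALDH1+ axis, at 2.86 and 2.81; NID2 had 0 to 3 counts per DMSO library, so its position depends on the prior count.

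Likeness of pattern was measured as Pearson's r of log2 CPM over the 12 libraries against 12116 genes with a symbol and a mean log2 CPM of at least 1, and is a description in which all points share the treatment. LAMA3 was most like GAD1 (r = 0.994), FN1 (0.993) and ITPRID2 (0.992), and COL17A1 most like MAST4 (0.996), GAD1 (0.993) and ITPRID2 (0.992). LAMB3 was most like HDAC9 (0.995), and ITGA6 most like IDS (0.994) and FERMT1 (0.993). ITGB4 was most like the basement membrane collagens COL4A2 and COL4A1 (both 0.991), DST most like the laminin chain LAMA2 (0.991), and PLEC most like ATP11A (0.980). Between members, r ranged from 0.79 for COL17A1 with PLEC to 0.99 for LAMA3 with COL17A1 and with ITGB4. In deviations from the group means, which leave the treatment out, r between members ranged from 0.21 for LAMA3 with ITGA6 to 0.88 for ITGA6 with PLEC. LAMA3 with PLEC stood at 0.43. These deviations still hold any shift shared by libraries with the same replicate number.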

How the data were processed

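Bulk RNA of 12 libraries was analysed. The authors deposited 1 table of raw read counts per gene, without normalization. Per the submitters' processing notes, Trim Galore, STAR and build hg19 were used; tool versions, how reads were counted and with which annotation and strand setting is not given in the sources used here. Libraries were made with a kit that marks strand, per the labels' protocols. Identifiers were matched, without version, to GENCODE symbols (51959 of 57783).

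In R 4.3.3 with edgeR 4.0.16, filterByExpr by group left 16327 genes. Libraries were scaled by TMM (factors 0.975 to 1.021), and 1 quasi-likelihood model with group means covered all 12 (biological coefficient of variation 9.6%). P-values of 5 comparisons were adjusted by Benjamini-Hochberg over all genes, and a gene was called below 0.05. CPM use the scaled library sizes. The SE is the absolute log2 fold change divided by the square root of the test's F. Intervals are the log2 fold change ± 1.96 SE. That multiplier ignores the test's limited degrees of freedom, so the intervals are too narrow. An interval can thus exclude no change where the unadjusted p is above 0.05. Precision follows the counts: members had 18 to 91846 per library. No pair of replicates matched within counting noise (chi-square per degree of freedom 3.92 to 34.1).

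Members and lists were chosen with earlier results of these data known. Named were all members, the other tested laminin chains, up to 4 called genes per list and treatment comparison by size of change, and the 3 genes most like each member; others are said to be outside this rule or complete a small count. CD151 and RPSA, as the only falls of their lists, and COL18A1, DSP, DAG1 and the AP-1 genes named under the replicate block are of the latter kind. So are ADAM10 and ADAM17, and all of these were chosen after their values were seen. Some genes that the rule allowed, and a member of 1 list, are not reported here; list counts leave that member out.

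Deviations from group means of libraries with the same replicate number correlated at 0.17 to 0.65 (18 pairs, 12354 genes whose mean log2 CPM reached 1; 0.09 to 0.41 over all genes tested), against -0.66 to 0.22 between numbers, so the numbers were taken to pair the libraries. The 3 deviations of a group cancel out. Values between numbers are thus partly fixed by those within numbers and are no separate support. Alternatives were other scalings (RLE, total counts), filters, DESeq2 1.42.0, limma-voom (limma 3.58.1), the replicate block, a fit restricted to the compared groups, and each library left out in turn; leaving out the 4 libraries numbered 3 was added after seeing the data.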

Additional observations from a re-analysis of the deposited data

How the results depend on the processing

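Over 15 alternatives each, the log2 fold changes of the 7 members kept their sign and their calls in both treatment comparisons, apart from PLEC in ALDH1-. That gene passed with no filter (adjusted p = 2.2e-05), DESeq2 (0.0498), the replicate block (0.0115), only the groups compared (0.0236), without EPZ5676 ALDH1- replicate 3 (0.0126) and without the 4 libraries numbered 3 (0.00168). In the comparison of ALDH1+ with ALDH1- in DMSO, the 0 members called lower became 4 with no filter, 3 with DESeq2 and 5 with the replicate block. The 0 of all genes called there became 948, 298 and 1384 in the same order, and 0 to 1 when a library was left out. In EPZ5676, the 3 genes called became 235 with no filter, 31 with DESeq2, 75 with the replicate block, 5 with only the groups compared, 61 without the 4 libraries numbered 3, and 0 to 21 when a library was left out (0 without replicate 2 of either population, 10 without ALDH1+ replicate 3 and 21 without ALDH1- replicate 3). For the interaction, no filter gave 1 member and 37 of all genes against 0 and 0; that setting also changes the spread estimated for all genes, and the cause of these shifts was not tested. Of values that were not called, the interaction of ITGB4 turned to -0.03 without the 4 libraries numbered 3. In EPZ5676, the population difference turned positive when a library was left out for LAMB3 (-0.18 to 0.02), ITGA6 (-0.19 to 0.02), ITGB4 (-0.1 to 0.01), DST (-0.21 to 0.01) and PLEC (-0.22 to 0.05). The treatment difference of KRT5 ranged from 0 to 0.11 in ALDH1+ (0 without the 4 libraries numbered 3) and from -0.06 to 0 in ALDH1-, and that of KRT14 from -0.09 to 0.32 in ALDH1-, when a library was left out. The replicate block changed no other member's call in the treatment comparisons, and gave 2837 genes higher and 2423 lower in ALDH1- against 2219 and 1476. Depth limits COL17A1, with as few as 18 counts in a DMSO library.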

Other observations

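Some genes tracked single members from library to library after the group means were removed. PLEC had an r of 0.995 with DIAPH2, ITGA6 had 0.974 with the kindlin FERMT1, and ITGB4 had 0.974 with the focal adhesion gene PARVA (12 libraries, 12116 genes). LAMB3 was closest to the matrix gene ECM1 (0.979), and LAMA3 had 0.916 with the basement membrane collagen COL4A4. These are among the highest of very many values and carry no test. Libraries with the same replicate number shared part of these deviations (r of 0.17 to 0.65 across genes). That part was not removed, so the 12 libraries are not independent points here.

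COL1A1, the fibrillar collagen on the fibroblast marker list, rose by 1.02 on the log2 scale in ALDH1+ (SE 0.14, adjusted p = 9.1e-05) and by 0.72 in ALDH1- (SE 0.15, adjusted p = 0.0025), while DCN and LUM of that list had 0 counts in all libraries.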
